A study of Homo sapiens with 3 samples.

Results

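H3K9me3 regions lying only downstream of genes were taken from the deposited region table of 2 Jurkat libraries, 1 from cells given CXCL12 and 1 from untreated control cells. A region was included when it lay on chromosomes 1 to 22 except 19, held no promoter, was annotated with at least 1 gene, and had every gene entry marked as downstream. These criteria set no threshold on signal, although the position entry follows the bin of highest signal in the region. They were met by 1252 control regions and 1237 CXCL12 regions, or 2489 of the 54116 regions in the whole table. On the same chromosomes the control library held 24863 regions and the CXCL12 library 25153.

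The mark, trimethylated lysine 9 of histone H3 (H3K9me3), was measured by ChIP-seq, which sequences the DNA pulled down with an antibody to it. Jurkat is an established human cell line grown from a T cell leukaemia of the acute lymphoblastic type. Both groups were cultured for 90 min without serum. The treated group then received CXCL12, a chemokine, for 15 min at 100 ng/ml, whereas the control group did not. Each group is 1 library of 1 cell line, so differences were not checked against replicates and no p-value is given.

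H3K9me3 is written by methyltransferases of the SUV39H and SETDB families and is read by heterochromatin protein 1, which together keep chromatin compact and transcription low. It covers repeats, transposable elements and tandem gene families such as the zinc finger and olfactory receptor genes. Where the mark lies past the end of a gene, it can sit between tandem copies, between genes that converge on each other, or over repeats in the space between genes. CXCL12 is a chemoattractant that acts on T cells through the receptor CXCR4.

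Among the genes listed beside these regions were 18 microRNA genes, whose products are short enough to be shown whole. RefSeq (GRCh38.p14) gave a mature sequence for 16 of them. The 5 chosen here belong to the microRNA loci with the highest signal, to the copies that share a product, and to the pair that lies beside the longest of the microRNA regions. Sequences run 5′ to 3′ and capitals mark the seed, bases 2 to 8, which pairs with target transcripts.
hsa-miR-3147: gGUUGGGCagugaggaggguguga
hsa-miR-1257: aGUGAAUGauggguucugacc
hsa-miR-3118: uGUGACUGcauuaugaaaauucu
hsa-let-7d-5p: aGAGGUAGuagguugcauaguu
hsa-let-7f-5p: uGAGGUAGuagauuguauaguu
The last 2 share the seed GAGGUAG of the let-7 family, which is known for restraining growth-promoting transcripts in differentiated cells. The 3 genes MIR3118-1, MIR3118-2 and MIR3118-3 carry the same mature sequence. Reads from near-identical copies may have been placed at any of them, so their separate values are uncertain.

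The highest signal beside a microRNA gene was that of MIR3147 at chromosome 7, 57482600 to 57493799 (hg19, as for all coordinates below). The authors listed a signal for the highest bin of each region and its mean over the bins, called the mean signal here. At MIR3147 it was 13.6 over 11200 bp in control and 16.2 over 8400 bp after CXCL12. The locus was therefore shorter and higher in mean in the CXCL12 library, while its highest bin was 54 in control and 49 after CXCL12.

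MIR1257 lies on the strand opposite to CDH4, which encodes R-cadherin, a cell adhesion protein, and 3 loci with summits past the ends of these genes were found in each library. Those loci ran from 60515600 to 60525799 on chromosome 20, and each held a CpG island. In control the first of them was listed with CDH4 alone. Their mean signals were 7.23, 12.9 and 9.14 in control and 6.55, 11.98 and 8.14 after CXCL12, in order along the chromosome. All 3 were slightly lower after CXCL12, with log2 ratios of −0.14, −0.10 and −0.17. The middle locus was the highest in both libraries and also the shortest, at 1600 and 1400 bp.

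MIRLET7F1 and MIRLET7D shared 1 long region per library on chromosome 9, 96948400 to 96967999. It measured 19200 bp in control and 19600 bp after CXCL12. Its mean signal was 5.86 and 5.84, so the libraries were level there. The region downstream of MIR122, whose product is the abundant microRNA of liver, measured 5200 bp in control, at 5.22. After CXCL12 it measured 10800 bp, at 4.35, and also covered part of a second control region of 5400 bp that was listed without a gene, at 5.07. MIR187, on the same chromosome 18, had 3.82 in control and 4.67 after CXCL12. The region beside MIR205, whose product is known from epithelia, was called after CXCL12 only, at 3.14.

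Among the MIR3118 copies, the deposited table placed all 3 on chromosome 1. RefSeq on GRCh38.p14 places MIR3118-1 on chromosome 21 and the other two on chromosome 15, and that difference between annotations was not resolved here. The control mean of MIR3118-3 was 8.40 and its CXCL12 mean 9.39. MIR3118-2 had a region only in control, at 10.9, and MIR3118-1 only after CXCL12, at 6.54. Over all microRNA genes, 9 of 13 loci were called in both libraries and the median log2 ratio of those 9 was 0.02, beside 0.03 over all 919 shared loci that lie only downstream of genes.

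In both libraries about 1 region in 20 lay only downstream of genes, and those regions were somewhat longer and stronger than the general run. They made up 5.04% of control regions (exact 95% interval 4.77 to 5.32%) and 4.92% of CXCL12 regions (4.65 to 5.19%). They covered 7.06 Mb in control and 7.38 Mb after CXCL12. These intervals express counting over regions, and cultures may vary more. The share was similar in the libraries on most chromosomes: on chromosome 1 it was 7.04% in control and 6.98% after CXCL12, and on chromosome 15 it was 3.01 and 3.29%. Differences were wider on chromosome 20, at 5.94 and 4.88%, chromosome 8, at 4.91 and 3.93%, and chromosome 9, at 5.76 and 4.81%.

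At the median, control regions measured 4400 bp and CXCL12 regions 4800 bp, against 4000 and 4400 bp for all regions of the same chromosomes. Mean signals had a median of 5.45 (control) and 5.49 (CXCL12), against 5.07 and 5.12. Both libraries thus showed the same order, and for the signal the gap to all regions was wider than the gap between the libraries. Regions only upstream of genes also had higher median signals than all regions, at 5.27 in control and 5.59 after CXCL12. Their median lengths were 4200 and 4400 bp. A higher signal was therefore not particular to the regions only downstream of genes. The quartiles of the control regions were 2800 and 6600 bp for length and 4.20 and 7.36 for signal, so the distributions overlapped widely. Longer regions tended to have a higher mean signal, with a Spearman correlation across regions of 0.35 in control and 0.36 after CXCL12, beside 0.32 and 0.33 for all regions. Regions are not independent replicates, and these correlations are descriptions.

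**Figure D1:**
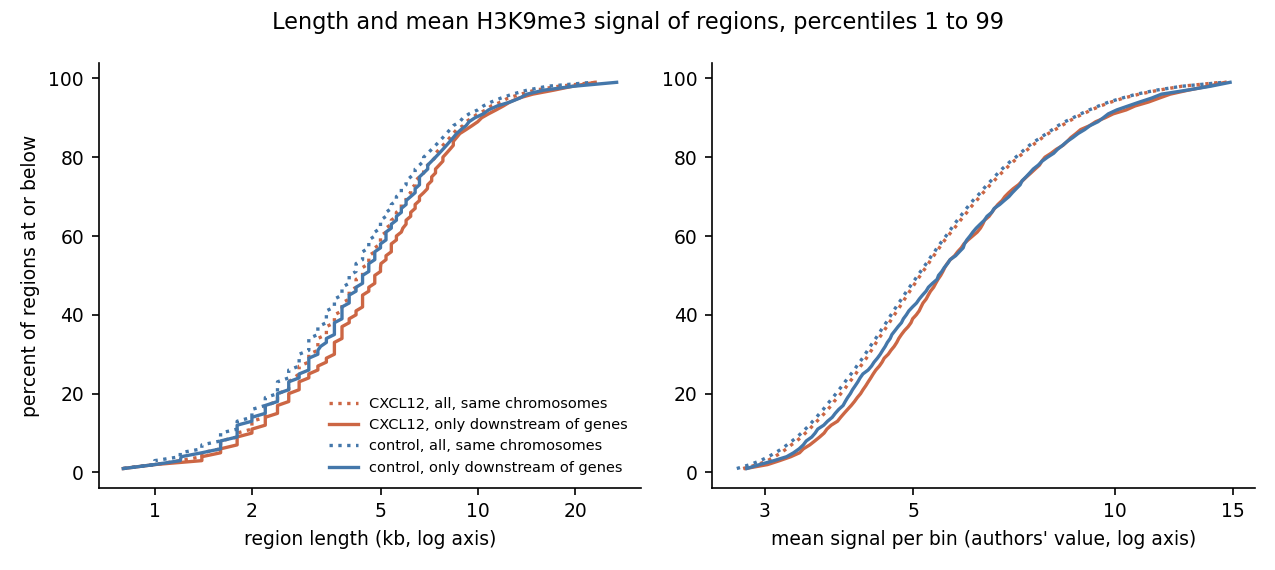
Percentiles 1 to 99 of region length (left, kb, log axis) and of mean signal per bin (right, log axis), with the percent of regions at or below each value on the vertical axis. Solid lines are regions only downstream of genes, dotted lines all regions of the same chromosomes, blue control and orange CXCL12: the solid lines lie to the right over most of the range, with median signals of 5.45 and 5.49 against 5.07 and 5.12.

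The longest regions lay beside zinc finger genes and an uncharacterised locus of chromosome 7. In control the longest region was 66400 bp downstream of ZNF727, a zinc finger gene, at 63545800 to 63612199, with a mean signal of 13.7. After CXCL12 the longest was 75400 bp at LOC728927, at 63779200 to 63854599, with 10.2. Regions of at least 20000 bp numbered 23 in each library, or 1.84% and 1.86%, beside 1.31% and 1.499% of all regions. Among regions only downstream of genes, the highest bin of each library was at the same place, downstream of LOC100129597 on chromosome 13 near 49118200, at 94 in control and 99 after CXCL12.

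CpG islands were listed in 63 control regions (5.03%, 3.89 to 6.39%) and 64 CXCL12 regions (5.17%, 4.01 to 6.56%). The share over all regions was 3.93% in control and 3.75% after CXCL12, and in regions with a summit in a gene and no promoter it was 2.54% in both. Regions with an island were longer and stronger: the median of their mean signals reached 8.42 and 8.45 in the control and CXCL12 libraries, against 5.32 and 5.39 without one. Their median lengths were 7200 and 7400 bp. A longer region has more room for an island, and the part of length in the difference was not tested.

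The authors' distance from a gene's start site is measured to the summit of the region, the bin of highest signal, and the class of a region (upstream, in gene or downstream) follows the summit as well. The distances of 5783 of 5786 genes with several summits (99.95%) point to a single start site on a single strand. A downstream region could therefore still cover the end of its gene with its flank. Among 1124 gene entries whose gene also had a summit inside it, 37 (3.29%) had a downstream region that reached back over such a summit. The deposited table gives no gene ends, so the distance past the end of a gene is not given here.

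Measured from the start site, the median summit distance was 37.2 kb in control and 37.0 kb after CXCL12. Within 10 kb of the start lay 8.83% of the gene entries in control and 9.11% after CXCL12, and beyond 100 kb lay 23.2 and 23.5%. A distance from the start includes the length of the gene. The nearest summit in both libraries was downstream of OR4C46, an olfactory receptor gene, at 2.96 kb in control and 2.93 kb after CXCL12. The farthest in control was 2309 kb from the start of CNTNAP2, a very long neuronal adhesion gene. The farthest after CXCL12 was 1507 kb from the start of FHIT, which spans a common fragile site.

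Regions that lay downstream of more than 1 gene were mostly between converging genes. In control, 99 regions had 2 genes, and of the 88 with both strands known 71 (80.7%) lay between genes pointing at each other. After CXCL12 there were 107 such regions, and 74 of 91 (81.3%) were convergent. For a region downstream of both genes, the other arrangement seen was a pair on the same strand, in 17 regions of each library. Requiring every entry to be downstream leaves out any region that lies upstream of 1 of its genes. The selection itself therefore favours convergent pairs, and their share is no measure of a preference of the mark. Regions with 2 genes had a median signal of 6.05 in control and 6.49 after CXCL12, against 5.43 and 5.44 for regions with 1 gene. KDM3A with VPS24, TBCD with B3GNTL1, NT5E with SNX14 and ZDHHC2 with CNOT7 were pairs of genes that shared a region among the loci described below.

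Regions only upstream of genes were fewer, at 293 in control and 263 after CXCL12. That class is narrow by construction: the largest gap from a region's edge to a start site was 9997 bp, and gaps below 7500 bp were counted as promoters. The numbers of upstream and downstream regions are therefore not comparable as a preference of the mark.

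Most of these places were marked in both libraries. Overlapping regions (at least 1 bp, from whichever library) were joined into loci, and a locus was used when all its regions lay only downstream of genes. Of 1210 such loci, 919 (75.95%, 73.4 to 78.3%) were called in both libraries, 142 in control only and 149 after CXCL12 only. Over all 27282 loci of the same chromosomes the share was 73.6%. Counted by region in place of locus, 88.7% of the control regions and 87.95% of the CXCL12 regions lay in a locus of both libraries, against 86.8 and 84.3% of all regions. A shared locus counts once among loci, whereas its regions count in each library.

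The overlapping region of the other library usually carried the same annotation. Of the control regions, 1005 (80.3%) overlapped regions only downstream of genes, 105 (8.39%) overlapped a region annotated in another way, and 142 (11.3%) overlapped none. Of the CXCL12 regions, the counts were 977 (79.0%), 111 (8.97%) and 149 (12.05%). A partner with another annotation was thus somewhat less frequent than no partner.

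**Figure D2:**
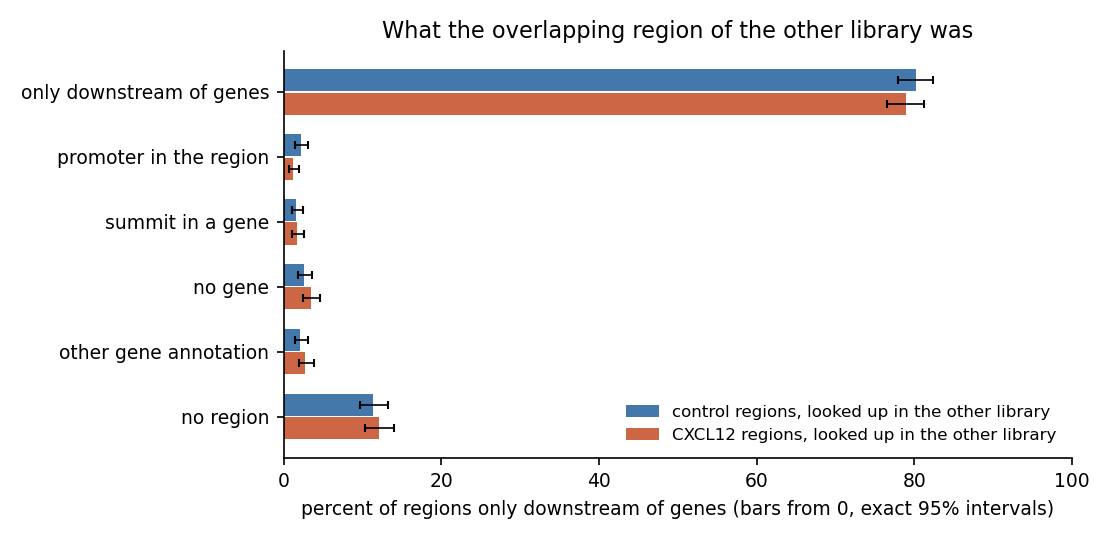
Percent of control (blue) and CXCL12 (orange) regions only downstream of genes, by what the overlapping region of the other library was, with exact 95% intervals over regions. The longest bars, 80.3 and 79.0%, are partners with the same annotation, and 11.3 and 12.05% had no partner.

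Where the other annotation was a promoter, the partner was long. In control 27 regions had a partner that held a promoter, and these partners had a median length of 21600 bp against 6200 bp for the regions themselves. After CXCL12 there were 14, with medians of 17200 and 7100 bp. The 800 bp control region downstream of MIR3147 lay at chromosome 7, 57479600 to 57480399. It overlapped a CXCL12 region of 157800 bp, at 14.08, that ran over the MIR3147 promoter. That CXCL12 region also spanned a control region of 156400 bp, at 13.97, which held a promoter too. At DKFZp434L192 on the same chromosome, 7000 bp in control met 78600 bp after CXCL12. In the other direction, ZNF37A had 18400 bp downstream after CXCL12 and 40200 bp with a promoter in control. The CXCL12 library also had a region of 27600 bp there, with its summit in the gene and no promoter.

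In other cases the region stayed and its summit moved. At ZNF248, a zinc finger gene on chromosome 10, the control region spanned 39000 bp with its summit past the gene, and the CXCL12 region spanned 41800 bp with its summit inside it. Mean signal there was 7.69 in control and 7.76 after CXCL12. ZNF596 behaved likewise, with 26800 and 25800 bp and mean signals of 9.81 and 11.3. These places counted as downstream in 1 library only, although both libraries carried the mark over nearly the same bases. In 864 loci with 1 region per library, both only downstream of genes, the summits lay 224 bp apart at the median. Of these loci 17.2% had summits more than 1 kb apart, beside 288 bp and 21.0% over 17948 loci in all. The selection leaves out loci such as ZNF248, whose summit moved into the gene. A smaller shift is therefore favoured by the selection.

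Loci without a counterpart had shorter and weaker regions. The 142 control loci had a median length of 2400 bp and a median mean signal of 4.14, and the 149 CXCL12 loci had 2600 bp and 4.04. Shared loci had medians of 4800 and 5200 bp and signals of 5.79 and 5.80. A region of the other library lay within 5 kb of 34 (23.9%) of the control loci and 46 (30.9%) of the CXCL12 loci. The single-library loci of all annotations were much alike, with medians of 2400 bp and 3.98 in control and 2600 bp and 3.88 after CXCL12, and 26.96 and 29.0% within 5 kb. No signal is listed for a library without a call, so no fold is given for these loci.

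The 5 highest signals seen in control only were at LOC100507153 (13.4), ANKRD30B (11.4), MIR3118-2 (10.9), LOC100507652 (9.50) and CSMD2 (8.83). None was longer than 2000 bp, and the nearest CXCL12 region lay 1.0 to 19.6 kb away. After CXCL12 only, the highest were at LOC402509 (9.80), at FRG2C with LOC100506764 (8.43), at OR10J1 (7.88), at DPP6 (7.75) and at SERPINB6 (7.73). OR10J1 is an olfactory receptor gene, DPP6 encodes a potassium channel subunit and SERPINB6 a protease inhibitor. The SERPINB6 locus stood farthest from any control region, at 67.6 kb, and the others had one within 2.6 to 12 kb.

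At the 919 shared loci the libraries carried nearly the same signal. The median log2 ratio of mean signal, CXCL12 over control, was 0.03 (interval over loci 0.02 to 0.05). That interval expresses spread over loci and not between cultures, so it does not show a rise caused by CXCL12. The quartiles were −0.12 and 0.19, and 524 loci were higher and 395 lower after CXCL12. Over all 20065 shared loci of these chromosomes the median was 0.04, and centring on that value put the median of the 919 loci at −0.0064. The loci kept their order, with a Spearman correlation between libraries of 0.85 across loci, beside 0.83 over all. Depth and scaling of the libraries are unknown, and a common offset would move all ratios together.

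Differences of at least 2-fold were rare. No locus was at least 2-fold higher after CXCL12, beside 0.125% of all shared loci, and 1 was at least 2-fold lower, beside 0.179%. At 1.5-fold, 20 loci were higher, or 2.18% beside 2.21% of all, and 11 were lower, or 1.197% beside 1.91%. These shares were near or below the background of all loci.

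**Figure D3:**
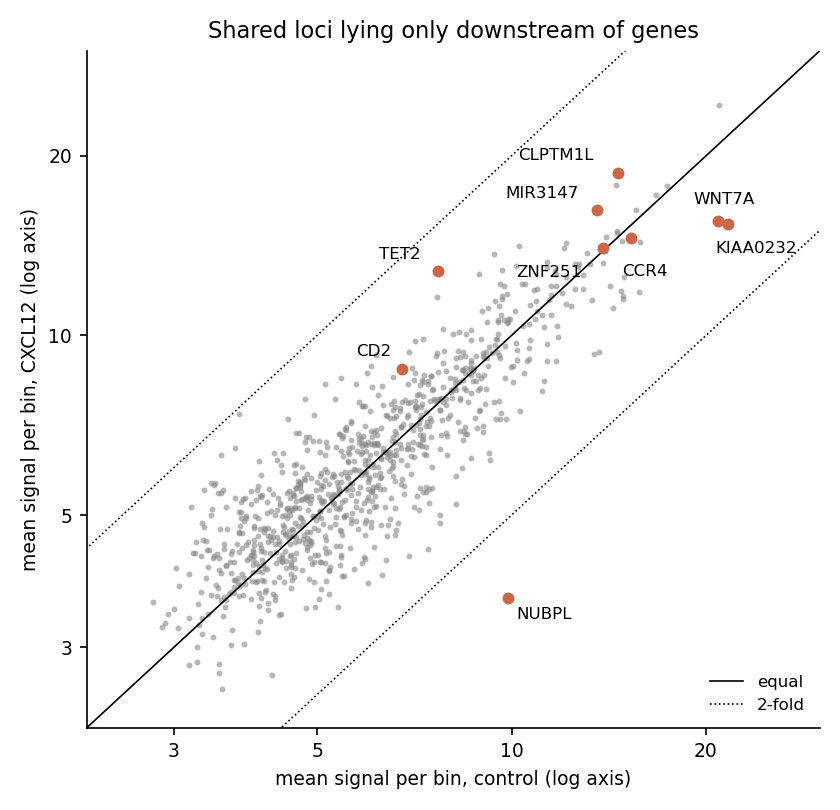
Mean signal per bin at 919 shared loci lying only downstream of genes, control (horizontal, log axis) against CXCL12 (vertical, log axis), with lines of equality and of 2-fold difference. Orange points are loci described in the text: most lie near the line of equality and NUBPL, at 9.88 and 3.63, is the point beyond the 2-fold lines.

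The locus past the 2-fold limit lay downstream of NUBPL, which encodes an assembly factor of mitochondrial complex I, at chromosome 14, 32333600 to 32337199. It had 9.88 in control and 3.63 after CXCL12, a log2 ratio of −1.44. The called region measured 1600 and 3600 bp, and the highest bins were 23 and 9. Both the mean and the highest bin were thus lower after CXCL12, and the summed signal was also lower, with a log2 ratio of −0.39.

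The other small ratios among stronger loci, those with a signal not below the median, went with longer CXCL12 regions. All 8 loci named for the smallest ratio were longer after CXCL12 than in control, and all 8 had a lower highest bin. Their mean signal ratios ran from −1.44 to −0.54, whereas the summed signal was higher after CXCL12 in 5 of the 8. RHEB, a small GTPase that activates the growth kinase mTOR, had 9.23 over 7000 bp in control and 6.34 over 11200 bp after CXCL12. The locus downstream of NT5E, which encodes the ecto-enzyme CD73, and of SNX14 had 13.7 over 2400 bp and 9.39 over 3600 bp. PRB4, a salivary protein gene, had 8.21 over 1200 bp and 5.22 over 1800 bp.

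The highest log2 ratio of the 919 loci was 0.96, at a weaker locus. The largest ratios among the stronger loci showed the reverse shape. Of the 8 loci named for them, 7 were shorter after CXCL12 and 1 had the same length, the highest bin was higher in 6, and the summed signal was higher in only 4. TET2, which encodes an enzyme that oxidises 5-methylcytosine, had a log2 ratio of 0.74 at chromosome 4, 106208000 to 106211399. Its mean signal was 7.68 over 3400 bp in control and 12.8 over 1800 bp after CXCL12, while the highest bins were 22 and 23. AMD1, an enzyme of polyamine synthesis, had 4.79 over 6400 bp and 7.83 over 2800 bp, but its highest bin was lower after CXCL12, at 26 and 19, as was its summed signal, with a log2 ratio of −0.40. KRT5, a keratin gene of basal epithelium, had 4.51 over 3400 bp and 7.23 over 1400 bp, with highest bins of 15 and 16 and a lower summed signal after CXCL12, with a log2 ratio of −0.62. TUBB4Q kept 800 bp in both libraries and had 5.44 in control and 8.48 after CXCL12.

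Over all 919 loci the signal ratio and the length ratio were negatively related, with a Spearman correlation of −0.64 across loci, beside −0.62 over all shared loci. Both are computed from the same called regions. At least 2-fold differences in called length were seen in 28 loci with the longer call after CXCL12, beside 5.55% of all shared loci, and in 19 with the longer call in control, beside 2.77%. As shares of the 919 these were 3.05 and 2.07%. Summed signal was at least 2-fold higher in 12 loci, beside 2.86% of all, and lower in 9, beside 0.967%. Among 473 loci made of a single region in each library, with lengths differing by at most 1.2-fold, no locus was 2-fold apart in either direction, and the median log2 ratio was 0.06.

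The highest bin gave a median log2 ratio of 0.08. It was at least 1.5-fold higher in 64 loci (6.96%), beside 7.8% of all shared loci, and lower in 24 (2.61%), beside 3.45%. A 2-fold higher value was found in 5 loci, beside 0.693% of all shared loci, and at least 2-fold lower in 2, beside 0.279%. The 5 were downstream of LOC100147773, CCDC150, LACTB2, S100A11 and SLC19A2, and were named after their values were seen. Their highest bins were low, at 5 to 8 in control and 11 to 16 after CXCL12. The 2 that were lower were NUBPL and SAMD4A, an RNA-binding repressor of translation, at 23 in control and 11 after CXCL12. When loci with at least 1 such region were counted, SLFN5 joined NUBPL as at least 2-fold lower in mean signal. SLFN5, a member of the interferon-regulated Schlafen family, had 17.4 over 1800 bp in control and 7.94 over 3000 bp after CXCL12. Its highest bins, 41 and 22, were less than 2-fold apart.

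The strongest shared loci differed by less than 1.5-fold in mean signal. KIAA0232 had 21.6 in control, the highest mean among the control regions only downstream of genes, and 15.4 after CXCL12, while its highest bins were 49 and 50. WNT7A, which encodes a secreted signalling ligand, had 20.9 over 8600 bp and 15.6 over 13200 bp, while its highest bins went the other way, at 59 and 69. CLPTM1L, the neighbour of the telomerase gene TERT, had 14.6 in control and 18.7 after CXCL12 over 4600 and 4400 bp. RXRA, a nuclear receptor for retinoids, had 15.6 and 16.2, with highest bins of 54 and 51. All 10 loci named for the highest signal had a higher summed signal after CXCL12, by log2 ratios of 0.02 to 0.32.

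The longest shared locus in which all regions lay only downstream of genes was at ZNF251 on chromosome 8, 145911400 to 145952799. It measured 40200 bp in control and 41400 bp after CXCL12, held 3 CpG islands and had mean signals of 13.9 and 14.0. The locus with its summits downstream of both TBCD, a tubulin folding cofactor, and B3GNTL1 measured 24200 and 21800 bp, at 9.56 in control and 11.2 after CXCL12. Both loci were within 1.2-fold in length and mean signal.

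In all, 1437 genes were listed downstream of a region, of which 1060 were listed in both libraries. A summit inside the same gene was present for 594 of them (41.3%), a summit upstream for 298, and 695 (48.4%) had no summit at either place. Of the 1212 symbols that matched RefSeq, 1128 (93.1%) were protein coding. As a background for the gene lists, 75.95% of all loci only downstream of genes were shared, and 57.0% of the shared ones were higher after CXCL12, as were 57.0% of all 20065 shared loci. Over all 6893 genes with any region on these chromosomes, 20.8% (19.9 to 21.8%) had a region only downstream of genes and 59.3% a summit inside.

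**Figure D4:**
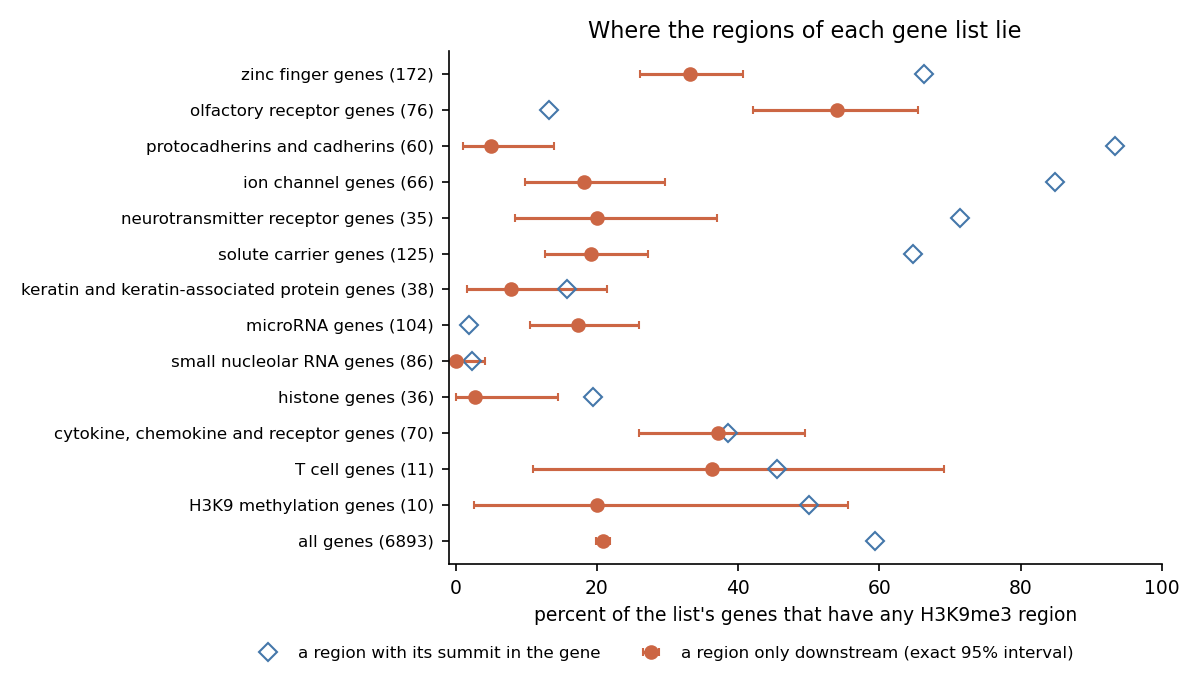
Percent of the genes of each list that had a region only downstream of genes (orange, exact 95% interval over genes) and a region with its summit in the gene (blue diamond), out of the list's genes with any region (number in brackets). Olfactory receptor genes lie farthest right in orange, at 53.9%, and protocadherins and cadherins farthest right in blue, at 93.3%.

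Olfactory receptor genes encode the odorant receptors of the nose and lie in tandem clusters. They more often had a region only downstream than a summit inside. Of 76 with any region, 41 (53.9%, 42.1 to 65.5%) had a region only downstream and 10 (13.2%) a summit inside, the reverse of the order over all genes. A short gene has little room for a summit inside it, and the part of gene length in this order was not tested. The median summit distance of the olfactory receptor genes was 8.08 kb from the start. Of 38 loci, 28 were shared, and the median log2 ratio was 0.03, beside 0.03 over all shared loci that lie only downstream of genes.

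The strongest of them were OR2M7 and OR2B6. OR2M7 had 8.26 in control and 9.41 after CXCL12, and OR2B6 had 8.66 and 8.99, all as mean signal. OR5AK2 was the longest of those named, at 10600 and 12200 bp, with 8.31 and 7.85. The highest bins went the other way, at 24 and 20 for OR2M7, 27 and 25 for OR2B6 and 25 and 34 for OR5AK2. These values lie above the medians of the shared olfactory loci, which were 5.01 in control and 5.19 after CXCL12.

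Zinc finger genes were taken by their symbols, and only some of their proteins repress transposable elements through TRIM28. They had downstream regions at 57 of 172 (33.1%, 26.2 to 40.7%) and summits inside at 114 (66.3%). Their longest regions were far longer than those of the olfactory receptor genes, reaching 66400 bp in control and 61000 bp after CXCL12 against 11000 and 12600 bp. Of 34 loci 26 were shared, 16 higher and 10 lower after CXCL12, with a median log2 ratio of 0.05. Besides ZNF251, ZNF407 had 10.9 over 19800 bp in control and 10.7 over 19600 bp after CXCL12, with highest bins of 41 and 50. ZNF691 had 9.74 and 10.6.

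At ZNF624 on chromosome 17, the longest control region measured 51000 bp, at 9.05, and the CXCL12 region 61000 bp, at 8.51. Their highest bins were 59 and 67. The CXCL12 region also spanned shorter control regions of 2200 and 3000 bp. ZFP1 had the highest mean of the list in control, at 14.6 over 19800 bp, and its CXCL12 partner of 32200 bp, at 11.9, held a promoter. That partner also spanned control regions of 4800 and 3000 bp, and the one of 4800 bp held a promoter too. ZFP1 and ZNF782, with 9.18 over 21400 bp in control and 10.5 over 21200 bp after CXCL12, were singled out after their values were seen, as was ZNF624. ZNF479 on chromosome 7 had 3 downstream regions in each library within 29.2 kb of its start, all of low signal, from 3.46 to 5.62.

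Cytokine, chemokine and receptor genes had downstream regions at 26 of 70 (37.1%, 25.9 to 49.5%), nearly as many as the 27 with a summit inside. Of 27 loci 19 were shared, beside the 75.95% over all, with 14 higher and 5 lower after CXCL12, beside 57.0% higher over all, a median log2 ratio of 0.15 and a range of −0.33 to 0.71. None was 2-fold apart. The highest was CCR4, a chemokine receptor of helper and skin-homing T cells, at 15.3 in control and 14.6 after CXCL12 (chromosome 3, 33005200 to 33010399). Its highest bins were 39 and 52, so the mean was slightly lower and the highest bin higher after CXCL12.

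IFNAR1, a subunit of the type I interferon receptor, had 11.4 in control and 13.3 after CXCL12. TNFSF4, which encodes the costimulatory ligand OX40L, had 11.4 over 7600 bp and 12.96 over 6000 bp. The largest ratio of the list, 0.71, was at CCL8, a monocyte-attracting chemokine, with means of 3.48 and 5.67 over 2200 and 1600 bp. Its highest bin was 11 in control and 9 after CXCL12, so the direction depended on the measure. IL20, a cytokine of epithelial responses, had no summit inside and 3 downstream regions in control and 2 after CXCL12, all within 16.05 kb of its start. There, 2 control regions of 2800 and 400 bp overlapped 1 CXCL12 region of 3600 bp.

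Of the T cell genes, 4 of the 11 with any region (36.4%, 10.9 to 69.2%) had one only downstream, beside 20.85% of all genes. All 3 shared loci were higher after CXCL12 by less than 1.5-fold. CD2, an adhesion receptor of T cells, had 6.77 over 5400 bp in control and 8.79 over 4400 bp after CXCL12, a log2 ratio of 0.38. IL2RA, the high-affinity subunit of the interleukin receptor of activated T cells, had 4.88 and 5.23. TBX21, the transcription factor T-bet, had 5.94 and 6.18. ICOS, a costimulatory receptor, had a region after CXCL12 only, with a low mean of 3.10. Of the B cell and myeloid genes, BLNK, an adaptor of B cell receptor signalling, had 5.34 over 6200 bp in control and 4.83 over 8400 bp after CXCL12. Its summed signal was higher after CXCL12, with a log2 ratio of 0.27, so the direction depended on the measure. EBF1, a B cell transcription factor, had a region in control only, at 3.57.

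Both genes of the H3K9 methylation list that had such a region encode lysine demethylases that act on this residue. KDM3A, which acts on mono- and dimethylated lysine, shared a locus with VPS24. That locus had 9.44 over 8800 bp in control and 11.4 over 7200 bp after CXCL12, and its summed signal had a log2 ratio of −0.0046. KDM4C, which acts on the trimethylated form, had 6.62 and 6.30 over 9200 and 9000 bp, with summits 465 and 467 kb from its start. They were 2 of the 10 genes of the list with any region.

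Cadherin, ion channel and neurotransmitter receptor genes more often had a summit inside than a region only downstream, as did all genes (59.3 and 20.85%). For ion channel and neurotransmitter receptor genes the downstream share was near that of all genes. Of 60 protocadherins and cadherins 3 (5.00%) had a downstream region and 56 (93.3%) a summit inside, and of 66 ion channel genes the numbers were 12 (18.2%) and 56 (84.8%). Of 35 neurotransmitter receptor genes 7 (20%) had a downstream region and 25 (71.4%) a summit inside. Their 4 shared loci had log2 ratios of 0.02 to 0.41, and centring on the median of all shared loci put the lowest, CHRNA4, at −0.02. CHRNA4, a nicotinic acetylcholine receptor subunit, shared a locus with COL20A1 at 13.8 and 14.0. ADRA2B, an adrenergic receptor, had 9.67 over 7000 bp in control and 12.9 over 5600 bp after CXCL12. GRIK1, a kainate receptor subunit, had 8.64 and 10.2.

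Potassium channel genes provided most of the ion channel values. KCNK5 had 8.21 in control and 9.18 after CXCL12, and KCNK12 had 5.15 and 5.73 over 14000 and 14600 bp. TRPM8, the cold receptor, had 6.29 over 3800 bp and 4.81 over 6000 bp. Among solute carriers 24 of 125 (19.2%) had a downstream region, beside 20.85% of all genes. Of their 19 shared loci 8 were higher and 11 lower after CXCL12. SLC16A9 was the strongest of them, at 10.96 in control and 11.98 after CXCL12. SLC2A1, which encodes the glucose transporter GLUT1, had 8.45 over 3800 bp and 6.91 over 5000 bp, while its highest bins were 15 and 20.

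For the lists that follow, the background is the 20.85% of all genes with a region only downstream. Small nucleolar RNA genes had no such region at all, at 0 of 86 (upper exact limit 4.20%). That limit treats the genes as independent. The selection leaves out any region upstream of a neighbouring gene, and its part in this count was not tested. Histone genes had 1 of 36, HIST4H4 after CXCL12 only, at 5.13. Keratin and keratin-associated protein genes had 3 of 38, which were KRT5 and, sharing 1 CXCL12 region of 1600 bp at 3.43, KRTAP4-9 and KRTAP4-11. DEFB1 and DEFB125 were 2 of 4 beta-defensin genes, and both counted in control only, at 4.43 and 6.37. In the CXCL12 library the overlapping regions, at 4.77 and 6.23, had their summits inside the genes.

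Most genes had a single downstream locus, and 6 genes had 5 or more regions over both libraries. LOC100132308 on chromosome 7 led with 3 in control and 4 after CXCL12. Its control region of 10600 bp at 14.5 corresponded to 2 CXCL12 regions of 800 and 8800 bp, at 32.7 and 13.1. The short region had the highest mean of all CXCL12 regions only downstream of genes. Over the whole locus the mean signals were 14.5 in control and 14.9 after CXCL12, so the high mean belonged to a small piece of a locus that was level between the libraries. PRL, the prolactin gene, had 3 regions in control and 2 after CXCL12, with mean signals of at most 6.

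**Figure D5:**
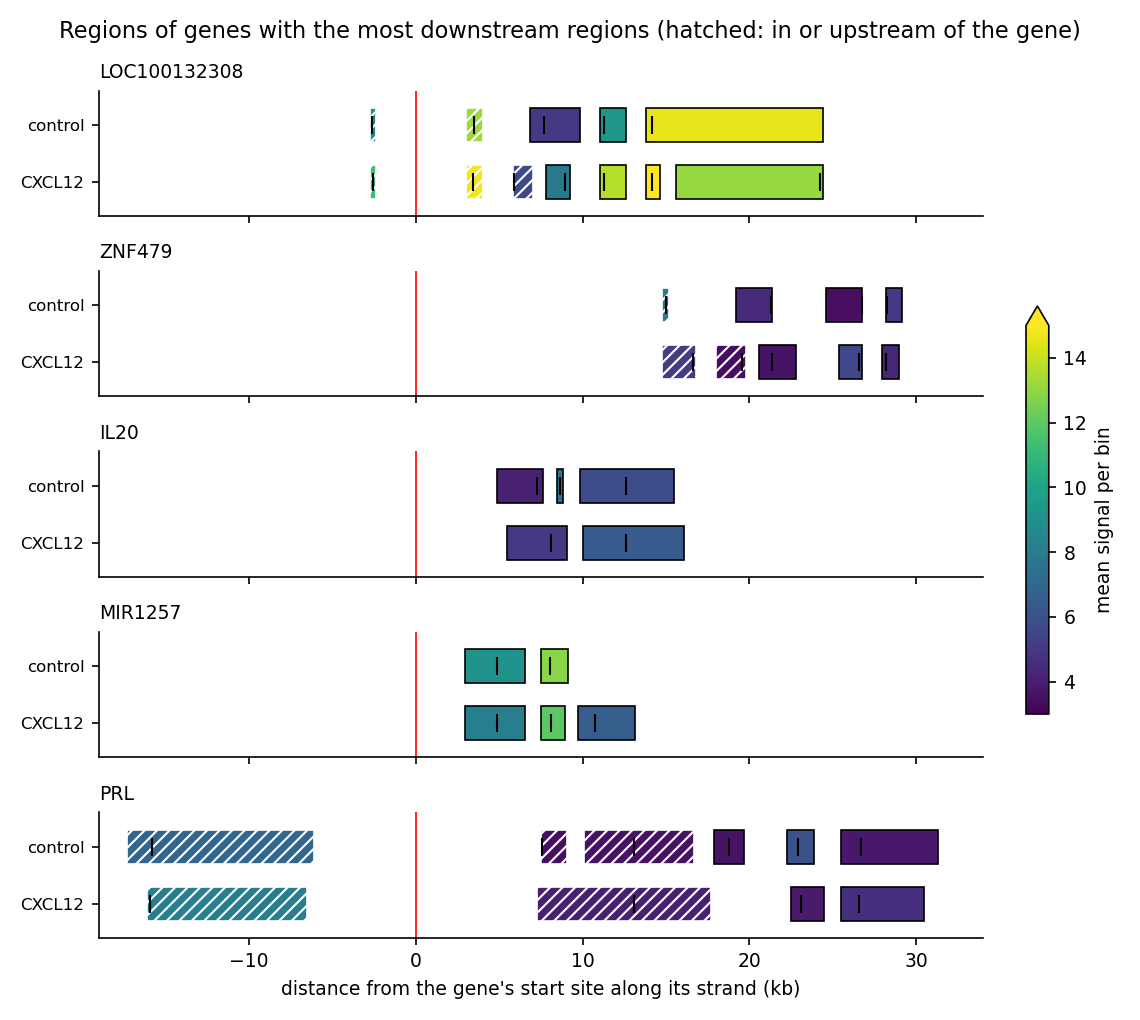
Regions of 5 of the genes with the most downstream regions, by distance from the start site along the gene's strand (kb, red line at the start), control above CXCL12. Filled boxes are downstream, hatched boxes lie in or upstream of the gene, black ticks are summits and colour is mean signal per bin: at LOC100132308 1 control region of 10600 bp faces 2 CXCL12 regions, and at IL20 the 3 control regions face 2.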

How the data were processed

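The series holds H3K9me3 ChIP-seq of Jurkat cells, with 1 CXCL12, 1 control and 1 input library, grouped by their treatment labels; the input was not analysed here. Per the labels' protocols, cells were fixed for 15 min in 1% formaldehyde and 30 µg of chromatin was used. The submitters' processing notes name the aligner BWA 0.7.12, the caller of broad regions SICER 1.1 and the build hg19. Per the file headers, the deposited signal is given as the mean of a region's bins and as its highest bin. Mean times bins was whole within 0.001% in 100% of regions, with bins of 32.9 bp at the median and region edges in steps of 200 bp. The sources used here state neither scaling, input correction, depth nor read number, so no counting interval was placed on signal. A deeper library could give longer regions and shift all ratios. Coordinates are as deposited, lengths include both end positions, and whether positions count from 0 or 1 is not given.

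Regions sharing at least 1 bp were chained into loci, and log2 ratios used the mean over all bins without a pseudocount. Shares carry Clopper-Pearson and medians order-statistic 95% intervals. No p-value was computed. Loci named were the 10 highest signals and 5 longest of shared loci, the 8 largest and 8 smallest ratios among stronger loci (signal not below the median), the 5 highest of each library alone, up to 3 per gene list, and genes with the most regions. The regions and the 15 gene lists were chosen with earlier results of these data known. Gene names are those of the deposited table, which gives no exon or intron; 3 entries had been turned into numbers by a spreadsheet. Python 3.11.15, numpy 2.4.6, pandas 2.3.3, scipy 1.17.1 and matplotlib 3.10.9 were used, and the locus computation was tested on simulated data.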

Additional observations from a re-analysis of the deposited data

How the results depend on the processing

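With 1 library per group, no setting tests whether a difference would recur. No paired analysis was possible because each group is 1 library and no test was run. With exactly 1 gene entry the share of regions only downstream of genes was 4.62% in control and 4.48% after CXCL12, and by covered length it was 5.53 and 5.39%. The share of loci called in both libraries was 79.5% where at least 1 region lay only downstream of genes. It was 68.1% for regions at or above the median signal of their own library, where a partner below that cut can drop out. By region it was 88.7% in control and 87.95% after CXCL12, a measure chosen after seeing the data. At 1.5-fold, 20 loci were higher and 11 lower. The median log2 ratio was −0.0064 when centred on all shared loci, 0.0825 by the highest bin and 0.0596 in length-matched loci. By the highest bin 5 loci were 2-fold higher and 2 lower, with at least 1 region qualifying 2 were lower, and with matched lengths 0 were lower. A pseudocount of 1, all chromosomes and an overlap of 50% of the shorter region left the results that they bear on within their spread. Of 65 named shared loci, the highest bin gave the other sign in 19, centring in 6 and the pseudocount in 0. The cause of these shifts was not tested.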
